A study of Homo sapiens with 6 samples.

Results

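Amino acids enter and leave epithelial cells through solute carrier (SLC) proteins, and the 10 carrier genes described here were measured in MCF-10A cells with and without a lentivirus that expresses MBD2, a protein that binds methylated CG dinucleotides. The genes are SLC6A14, SLC6A15, SLC7A5, SLC7A11, SLC3A2, SLC1A3, SLC1A4, SLC1A5, SLC38A1 and SLC38A2. The family was chosen by the large decrease of SLC6A14 with MBD2 on these same arrays, so the values of SLC6A14 are given as a description with no test. All 26 probe sets that the platform annotation ties to 1 of these symbols alone were kept, of 41091 such probe sets of 19775 genes on the Affymetrix Human Genome U133 Plus 2.0 array. No filter on low values was applied, so all 26 probe sets are accounted for.

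MCF-10A is an immortalized, nontransformed line of breast epithelial cells. The MBD2 cells carried the MBD2 lentivirus, packaged in HEK293 cells, and were hybridized to 3 arrays (MBD2 arrays 1 to 3), and the control cells to 3 arrays (control arrays 1 to 3). The treatment label of the MBD2 arrays reads MBD2 transfection, while the methods describe the lentivirus. The labels describe the controls as cells without infection and the arrays as technical replicates, whereas the methods describe an empty virus and biological replicates. These sources conflict on the kind of replicate, and neither describes separate cultures for the 3 arrays of a group. Each p-value therefore reflects no more than the scatter of these 6 arrays, some of which may be technical. With 3 arrays a group the precision is limited. Both groups grew in the same mammary epithelial medium, and whether the infected cells were 1 clone or a pool is not given in the sources used here.

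The carriers fall into families by how they work. SLC6 carriers, SLC1A3 and the SLC38 carriers use the sodium gradient to bring amino acids into the cell. SLC1A4, SLC7A5 and SLC7A11 exchange one amino acid for another. SLC7A5 and SLC7A11 reach the cell surface only as a pair with the heavy chain SLC3A2. Cystine taken up by SLC7A11 feeds glutathione synthesis, and leucine taken up by SLC7A5 feeds the mTORC1 growth pathway. When amino acids run short, the transcription factor ATF4 raises several of these carriers through a short DNA element called the C/EBP-ATF response element.

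The start of SLC6A14 is shown because this gene chose the family and because MBD2 binds methylated CG pairs. RefSeq (GRCh38.p14) gave the window from 250 bases before to 50 bases after the start, chrX:116436356-116436655 on the plus strand, with every CG in capitals. It holds 4 CG in 300 bases, where the median of 35116 such windows was 14 and the quartiles were 4 and 28. Whether these sites were methylated was not measured on these arrays.
SLC6A14 start window: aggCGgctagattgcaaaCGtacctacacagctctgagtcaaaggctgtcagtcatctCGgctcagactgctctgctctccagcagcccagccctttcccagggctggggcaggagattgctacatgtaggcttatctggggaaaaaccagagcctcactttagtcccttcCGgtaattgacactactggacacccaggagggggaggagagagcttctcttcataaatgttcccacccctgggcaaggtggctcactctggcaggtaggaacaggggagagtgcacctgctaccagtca

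The same table held 16 start windows of 8 member genes. The C/EBP-ATF response element was searched as TGATGNAA on both strands, because ATF4 binds it, and a match was present in 5 of the 16 windows, in 1 window each of SLC1A3, SLC1A4, SLC1A5, SLC38A1 and SLC3A2. The other windows of these genes held none. Of all windows of that length 3.62% held a match. A match is a stretch of letters and not a measured binding site. The matches are printed on the strand of the gene with the 8 matching letters in capitals, for SLC1A3 at chr5:36596357-36596386 (plus), SLC1A4 at chr2:64989381-64989410 (plus), SLC1A5 at chr19:46784893-46784922 (minus), SLC38A1 at chr12:46266502-46266531 (minus) and SLC3A2 at chr11:62881725-62881748 (plus). In SLC1A4 and SLC3A2 the element runs on the other strand, so the capitals show its reverse complement. The core of the antioxidant response element, TGANNNNGC, was also searched. It matched 8 of the 16 windows, where 41.8% of all windows held it, and its matches are not printed.
SLC1A3: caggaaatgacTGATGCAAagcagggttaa
SLC1A4: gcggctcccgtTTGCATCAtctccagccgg
SLC1A5: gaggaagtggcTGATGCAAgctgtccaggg
SLC38A1: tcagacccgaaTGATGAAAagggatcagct
SLC3A2: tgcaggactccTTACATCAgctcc
SLC1A3 was lower on every MBD2 array, and SLC1A5 varied by less than 1 log2 unit. Some probe sets of SLC1A4 and SLC38A1 and that of SLC3A2 stood at least 2-fold low on control array 3. So did SLC7A5, whose window held no such match, and probe sets of SLC6A15 and SLC7A11, which had no window. SLC6A14, also without a match, had the largest decrease. Any link between the match and the levels was not tested.

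MBD2 itself was checked first. Its brightest probe set (202484_s_at) gave 12.17, 11.72 and 12.50 on MBD2 arrays 1 to 3, against 8.92, 9.03 and 9.68 on control arrays 1 to 3. All values here are log2 levels after normalization by the robust multi-array average (RMA), and differences are MBD2 minus control unless stated. The difference was 2.92 ± 0.28 (SE), with an adjusted p of 0.0157 by limma over all 41091 probe sets, so the labels held. The other 3 probe sets of MBD2 had differences between -0.08 and 0.11 at low levels.

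Within each group 1 array stood apart. MBD2 arrays 2 and 3 differed by more than 2-fold in 148 probe sets, and MBD2 arrays 1 and 2 in 5552. Control arrays 1 and 2 differed that much in 26 probe sets, and control arrays 1 and 3 in 3037. Of 7 basal epithelial markers that define MCF-10A, 5 were measured, and their mean level was 12.6, 12.4 and 12.1 on MBD2 arrays 1 to 3, against 13.2, 13.2 and 12.3 on control arrays 1 to 3. MBD2 array 1 had high fibroblast markers, with decorin (DCN) at 12.57, against 7.59 and 8.54 on MBD2 arrays 2 and 3. The mean of the 5 fibroblast markers was 8.42, 5.64 and 6.25 on MBD2 arrays 1 to 3, against 6.77, 6.79 and 6.28 on control arrays 1 to 3. The median of 12 mitosis genes, from the control mean, lay at -0.59, 1.69 and 1.59 on MBD2 arrays 1 to 3, against 0.48, 0.63 and -1.11 on control arrays 1 to 3. The mean of the 3 HEK293 markers was 3.68 to 3.94 on MBD2 arrays and 3.93 to 4.02 on control arrays. That of 3 leukocyte markers was 5.33 to 5.64 on MBD2 arrays and 6.42 to 6.68 on control arrays, a difference carried by CD14 (7.18 against 10.25 on average), while PTPRC lay between 3.50 and 3.87 on MBD2 arrays and between 3.81 and 4.03 on control arrays. The 18 hybridization controls averaged 10.960, 9.944 and 10.007 on MBD2 arrays 1 to 3, against 11.158, 11.332 and 11.003 on control arrays 1 to 3. The excess of the 3′ over the 5′ GAPDH control, a sign of RNA quality, was 1.84, 1.49 and 1.52 on MBD2 arrays 1 to 3, against 2.03, 2.52 and 1.83 on control arrays 1 to 3. The hybridization controls and the GAPDH excess were lowest on MBD2 arrays 2 and 3, and in them MBD2 array 1 lay close to control array 3. The same excess for actin was 3.93, 3.45 and 3.44 on MBD2 arrays 1 to 3, against 3.95, 4.57 and 3.62 on control arrays 1 to 3. By actin, MBD2 array 1 lay closest to control array 1. The part of any of these in the carrier results was not tested.

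SLC6A14, which takes up neutral and cationic amino acids with sodium and chloride, was the carrier with the largest decrease in the family. It gave 4.88, 3.63 and 3.58 on MBD2 arrays 1 to 3, against 9.24, 9.33 and 12.15 on control arrays 1 to 3. The groups lay 4.36 apart at their nearest arrays, and MBD2 arrays 2 and 3 lay within 0.5 of the array's background, which limits the ratio that can be measured. The mean was 4.03 ± 0.74 with MBD2 and 10.24 ± 1.66 in controls (SD, n = 3 each), a difference of -6.21, or 74.0-fold. Control array 3 was 7.31-fold above the mean of control arrays 1 and 2, and without it the difference was -5.25. Without both control array 3 and MBD2 array 1 it was -5.68. Since these are bulk arrays, fewer cells that express SLC6A14 and less SLC6A14 RNA in each cell cannot be told apart.

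**Figure D1:**
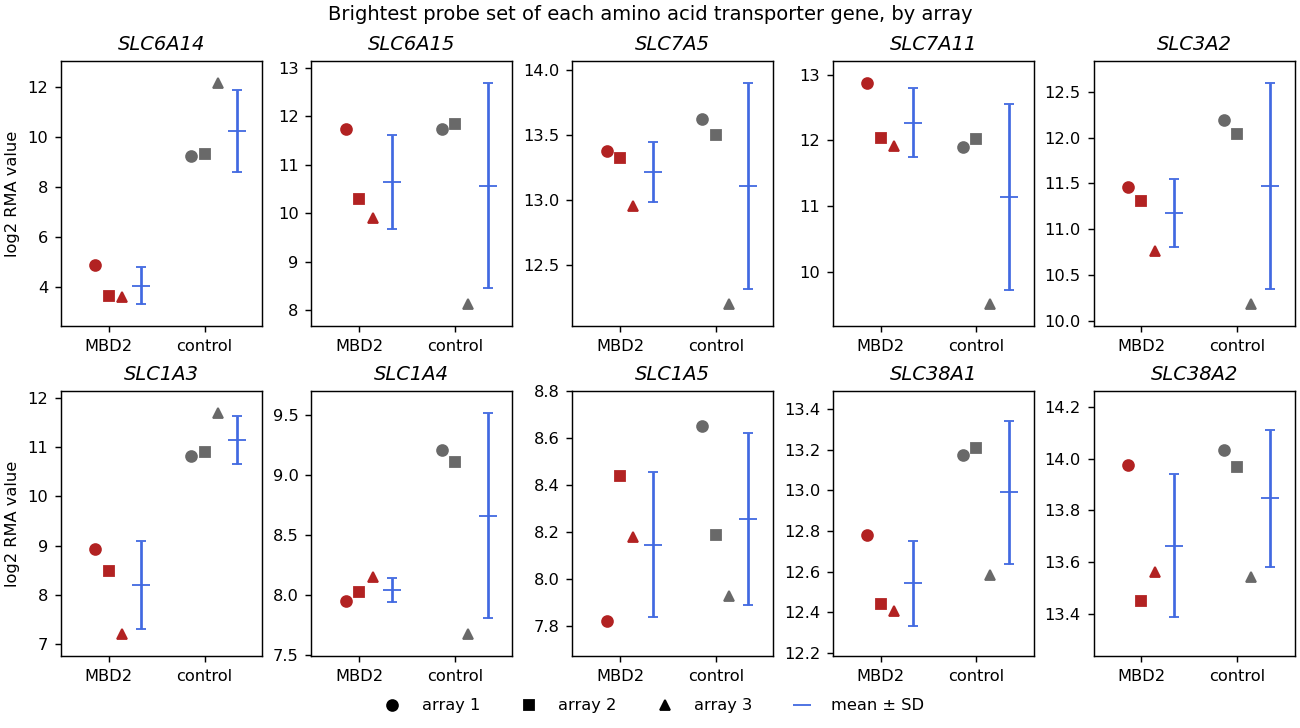
Log2 RMA value of the brightest probe set of each gene on each array, MBD2 left and control right in every panel, with the mean and SD of 3 arrays as blue bars and each panel on its own axis. SLC6A14 and SLC1A3 are lower on all MBD2 arrays than on any control array, whereas for SLC6A15, SLC7A5, SLC7A11, SLC3A2 and SLC1A4 control array 3 lies below every other array.

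The 5 genes whose profile over the 6 arrays came nearest to that of SLC6A14, each centred on its own mean, were BBOX1, CD36, KRT4, SPRR1A and TMPRSS15, with root mean square differences of 0.48, 0.56, 0.62, 0.69 and 0.78 log2 units. BBOX1 encodes the last enzyme of carnitine synthesis, CD36 a fatty acid receptor, KRT4 a keratin of stratified mucosa, SPRR1A a cornified envelope protein and TMPRSS15 the protease that activates trypsinogen. BBOX1 gave 5.72, 4.61 and 3.92 on MBD2 arrays 1 to 3, against 9.60, 9.63 and 11.63 on control arrays 1 to 3. CD36 gave 5.12, 3.12 and 3.35 on MBD2 arrays 1 to 3, against 7.77, 8.23 and 11.72 on control arrays 1 to 3. In all 5, as in SLC6A14, control array 3 was the highest of the 6 arrays. Within 0.5 of background lay 1 array of BBOX1, 2 of CD36, 3 of TMPRSS15 and 0 of KRT4 and SPRR1A, against 2 of SLC6A14. Part of the likeness of BBOX1, CD36 and TMPRSS15 therefore lies among such low values. The 5 genes were picked for likeness, so their profiles carry no test.

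SLC6A15, a sodium-coupled carrier of branched-chain amino acids and proline, did not share the pattern of SLC6A14. Its brightest probe set (206376_at) gave 11.75, 10.30 and 9.90 on MBD2 arrays 1 to 3, against 11.74, 11.85 and 8.12 on control arrays 1 to 3. The control values span the MBD2 values, since control array 3 was 12.8-fold below the mean of control arrays 1 and 2. The difference was 0.08 (95% interval -2.64 to 2.80, adjusted p = 0.981 by limma), and without control array 3 it was -1.14. A second probe set (239352_at) gave 8.47, 7.51 and 6.96 on MBD2 arrays 1 to 3, against 8.85, 8.90 and 5.18 on control arrays 1 to 3, with a difference of 0.00. The remaining 3 probe sets (240419_at, 232263_at and 1569916_at) had differences of 0.31, 0.70 and 0.04. The probe sets disagreed on MBD2 array 1, which lay 1.65 above MBD2 arrays 2 and 3 in 206376_at and at -1.13 from them in 240419_at.

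SLC3A2 encodes the heavy chain that carries SLC7A5 and SLC7A11 to the membrane. Its probe set (200924_s_at) gave 11.46, 11.31 and 10.76 on MBD2 arrays 1 to 3, against 12.20, 12.04 and 10.18 on control arrays 1 to 3. All MBD2 arrays lay below control arrays 1 and 2 and above control array 3, which was 3.83-fold below them. The difference was -0.30 (adjusted p = 0.842), and -0.94 without control array 3 (adjusted p = 0.137).

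SLC7A5, the light chain that takes up leucine and other large neutral amino acids, was close to level between the groups. It gave 13.37, 13.32 and 12.95 on MBD2 arrays 1 to 3, against 13.62, 13.50 and 12.20 on control arrays 1 to 3. The groups overlapped because control array 3 was 2.57-fold below the mean of the other two. The difference was 0.11 (adjusted p = 0.924), and -0.34 without control array 3, so its sign rests on that array.

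SLC7A11, the light chain that exchanges glutamate for cystine, had the highest difference of the family, yet its groups overlapped. Probe set 209921_at gave 12.87, 12.04 and 11.91 on MBD2 arrays 1 to 3, against 11.90, 12.02 and 9.51 on control arrays 1 to 3. The difference was 1.13 (95% interval -0.64 to 2.90, adjusted p = 0.495). Control array 3 was 5.47-fold below the other control arrays in this probe set, 8.23-fold in 217678_at and 12.3-fold in 207528_s_at. Without control array 3 the 3 probe sets had differences of 0.31, -0.06 and -0.68, against 1.13, 0.95 and 0.53 with it. The sign of the last 2 therefore turned with 1 array.

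SLC1A3, a sodium-coupled glutamate and aspartate carrier known from glial cells, was lower on all MBD2 arrays. Probe set 202800_at gave 8.93, 8.47 and 7.20 on MBD2 arrays 1 to 3, against 10.83, 10.90 and 11.69 on control arrays 1 to 3. The groups lay 1.89 apart at their nearest arrays. The mean was 8.20 ± 0.90 with MBD2 and 11.14 ± 0.48 in controls (SD, n = 3 each), a difference of -2.94 ± 0.49 (SE; 95% interval -4.13 to -1.74), or 7.66-fold. Its unadjusted p was 0.000988 and its adjusted p 0.0512 by limma, just above the threshold of 0.05. Its adjusted p ranged from 0.000215 to 0.4996 over the alternatives tried, with 0.0419 when 1 probe set stood for each gene, 0.0112 without MBD2 array 1 and 0.0854 without control array 3. The other probe set (1569054_at) lay at background, between 3.14 and 3.37 on MBD2 arrays and between 3.23 and 3.46 on control arrays.

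SLC1A4 exchanges alanine, serine, cysteine and threonine. Probe set 212811_x_at gave 7.95, 8.03 and 8.15 on MBD2 arrays 1 to 3, against 9.20, 9.11 and 7.68 on control arrays 1 to 3. Probe set 212810_s_at gave 7.62, 7.52 and 7.95 on MBD2 arrays 1 to 3, against 9.42, 9.28 and 6.98 on control arrays 1 to 3. In both, the MBD2 arrays lay close together below control arrays 1 and 2 and above control array 3. The differences of 212811_x_at, 209610_s_at and 212810_s_at were -0.62, -0.64 and -0.86, with adjusted p of 0.519, 0.636 and 0.576. Control array 3 was 2.78-fold, 4.17-fold and 5.18-fold below the other control arrays in them. Without that array the differences were -1.11, -1.32 and -1.65, with adjusted p of 0.0295, 0.0307 and 0.0283 by limma. The array left out was low in these same probe sets, and control arrays 1 and 2 were nearly alike. These p-values are therefore no independent support for a decrease. The 2 dim probe sets, 209611_s_at and 244377_at, had differences of -0.27 and 0.01. The x and s endings mark probes that can match other transcripts.

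SLC1A5, the glutamine carrier of the same family, varied by less than 1 log2 unit over the 6 arrays. It gave 7.82, 8.44 and 8.18 on MBD2 arrays 1 to 3, against 8.65, 8.19 and 7.93 on control arrays 1 to 3, and the groups overlapped. The difference was -0.11 (95% interval -0.70 to 0.48, adjusted p = 0.866).

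SLC38A1 and SLC38A2 bring in glutamine and other small neutral amino acids with sodium. SLC38A1 (224579_at) gave 12.78, 12.44 and 12.41 on MBD2 arrays 1 to 3, against 13.17, 13.21 and 12.59 on control arrays 1 to 3. Only control array 3 reached into the MBD2 range, and the difference was -0.45 (adjusted p = 0.361). The other probe sets of SLC38A1 had differences of -0.37 (218237_s_at), -1.04 (224580_at, adjusted p = 0.336) and -0.39 (236857_at). The last was dim, with 4.52, 4.45 and 4.39 on MBD2 arrays 1 to 3, against 4.83, 4.80 and 4.90 on control arrays 1 to 3, but its groups did not overlap (unadjusted p = 0.00594, adjusted p = 0.119). SLC38A2 (222982_x_at) gave 13.98, 13.45 and 13.56 on MBD2 arrays 1 to 3, against 14.03, 13.97 and 13.54 on control arrays 1 to 3. Its groups overlapped, and its 3 probe sets had differences of -0.18, -0.35 and -0.46 near the top of the measured range, which ended at 14.74.

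Set side by side, the 25 probe sets of the 9 genes other than SLC6A14 had a median difference of -0.18, with 15 below 0. The median of all probe sets was 0.00, and 50.7% of them were below 0. None was called lower and none higher by limma at an adjusted p under 0.05 and 1.5-fold, where 0.978% of all probe sets were called lower and 0.898% higher. At an unadjusted p under 0.05, 2 were lower (SLC1A3 and the dim SLC38A1 probe set, background 8.05%) and 0 higher (background 8.49%). The same 2 had groups that did not overlap, both lower (background 12.3%), and 0 were separate and higher (background 10.4%). These shares lie near the background or below it.

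**Figure D2:**
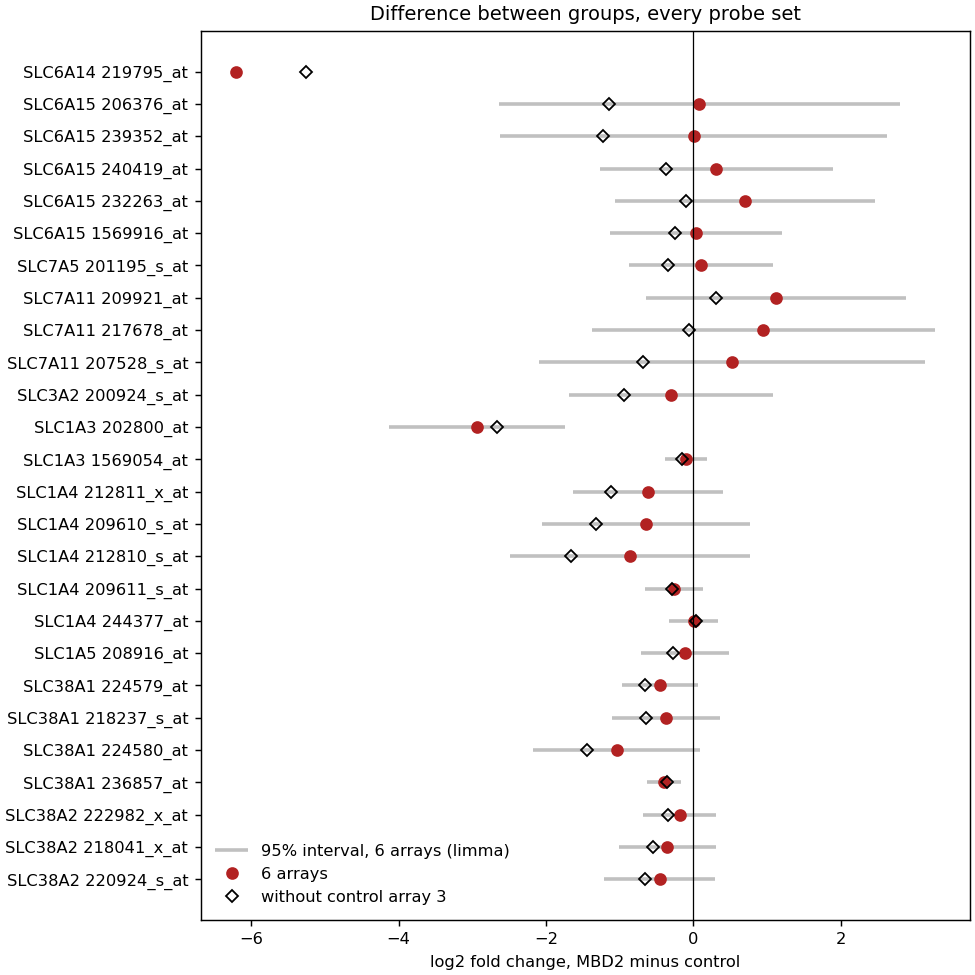
Log2 fold change, MBD2 minus control (horizontal axis), of every probe set of the 10 genes (one per row) over the 6 arrays (red), with limma's 95% interval in grey for all but SLC6A14, and without control array 3 (open diamonds). SLC1A3 (202800_at) is far below 0 with an interval that leaves 0 out, and most open diamonds lie left of their red points.

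Many probe sets differed more within the control group than between the groups. Control array 3 was at least 2-fold below the mean of control arrays 1 and 2 in 13 of the 25 probe sets, where 4.1% of all probe sets were, and at least 2-fold above it in 0, where 3.16% were. The 13 belong to SLC6A15 (4 of 5 probe sets), SLC7A11 (3 of 3), SLC1A4 (3 of 5), SLC7A5, SLC3A2 and SLC38A1 (1 of 4), and probe sets of 1 gene share their transcript, so they are not independent. The median of the 25 was -1.22, against 0.03 over all probe sets. SLC6A14 and SLC1A3 went the other way on that array, at 2.87 and 0.83 above control arrays 1 and 2. MBD2 array 1 was at least 2-fold above MBD2 arrays 2 and 3 in 7 of the 25 probe sets (background 5.55%), among them probe sets of SLC6A15, SLC7A11, SLC1A3 and SLC38A1, and at least 2-fold below in 2 of SLC6A15 (background 7.26%). MBD2 arrays 2 and 3 differed by a median of 0.20 in the 25 probe sets, and control arrays 1 and 2 by 0.12.

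**Figure D3:**
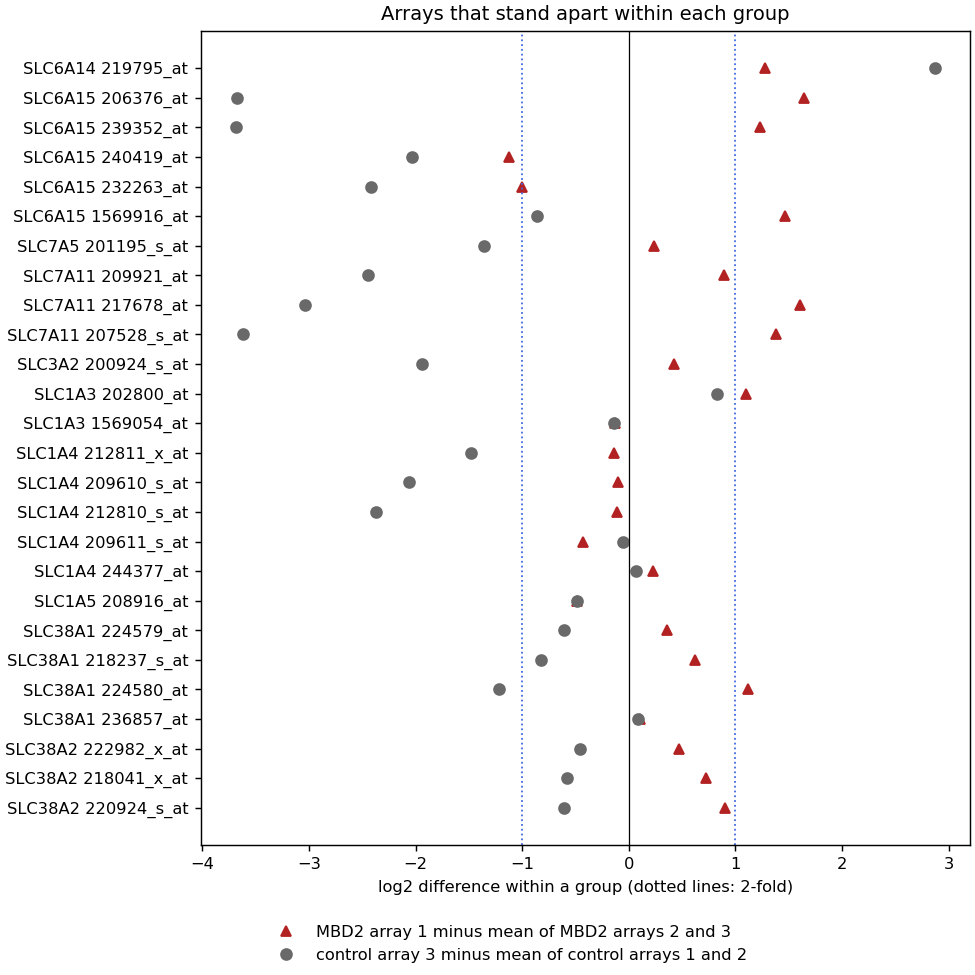
Log2 difference of MBD2 array 1 from the mean of MBD2 arrays 2 and 3 (red triangles) and of control array 3 from the mean of control arrays 1 and 2 (grey circles) for every probe set, one per row, with dotted lines at 2-fold. In 13 of the 25 rows below SLC6A14 the grey circle lies left of the left dotted line, and SLC6A14 has the circle farthest right.

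Without control array 3, the 25 probe sets had a median difference of -0.55 and 23 were below 0. Over all 41091 probe sets the median was then 0.01, and 19937 were below 0. Control array 3 was low in many of the 25, so leaving it out lowers their differences by construction. Limma then called the 3 SLC1A4 probe sets lower (background 1.24%) and 0 higher (background 0.944%). The array left out was low in those same probe sets, so these calls are no independent support. Without both control array 3 and MBD2 array 1, 15 were called lower (background 9.96%) and 0 higher (background 15.5%), from SLC6A15, SLC7A11, SLC3A2, SLC1A3, SLC1A4, SLC38A1 and SLC38A2. That comparison rests on 2 arrays a group that were nearly alike, so its p-values rest on the small spread between them. In it SLC6A15 (206376_at) had a difference of -1.69, SLC3A2 -1.08 and SLC7A11 (209921_at) 0.01.

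The other carriers of amino acids were read from 52 listed genes, of which 49 were measured by 113 probe sets. Limma called 1 probe set lower and 0 higher (background 0.978% and 0.898%), and at an unadjusted p under 0.05 10 were lower and 5 higher (background 8.05% and 8.49%). These counts lie near the background or below it. The called one (229061_s_at) belongs to SLC25A13, the mitochondrial aspartate and glutamate carrier, at 5.97, 5.94 and 5.78 on MBD2 arrays 1 to 3, against 6.80, 6.72 and 6.59 on control arrays 1 to 3. Its difference was -0.81 (adjusted p = 0.0347), but the brighter probe set of the gene had -0.36 and was not called. Their brightest probe sets were at least 2-fold lower on control array 3 in 8 of 49 genes and higher in 0, where the brightest probe sets of all 19775 genes were lower in 4.31% and higher in 3.36%. The same count for the 9 member genes other than SLC6A14 was 5 lower and 0 higher. Among the 8, SLC7A8, a light chain that also pairs with SLC3A2, gave 9.62, 7.15 and 6.72 on MBD2 arrays 1 to 3, against 9.85, 9.76 and 6.75 on control arrays 1 to 3. The arginine and lysine carrier SLC7A1 was 2.59-fold lower on control array 3 than on the other controls, and the taurine carrier SLC6A6 4.30-fold.

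Genes of the amino acid response, which ATF4 drives, did not pass the test: of 37 probe sets of 20 genes 0 were called in either direction (background 0.978% lower and 0.898% higher), and 1 was lower and 3 higher at an unadjusted p under 0.05 (background 8.05% and 8.49%), which is near the background or below it. ATF4 gave 10.09, 11.26 and 11.14 on MBD2 arrays 1 to 3, against 10.01, 10.03 and 10.86 on control arrays 1 to 3 (difference 0.53, adjusted p = 0.562). Asparagine synthetase (ASNS), a known ATF4 target, gave 7.46, 9.05 and 9.45 on MBD2 arrays 1 to 3, against 8.68, 8.57 and 7.94 on control arrays 1 to 3 (difference 0.25, adjusted p = 0.859). The stress factor ATF3 stood at 12.88 on control array 3, against 6.78 and 6.88 on control arrays 1 and 2. By their brightest probe sets, 1 of these 20 genes was at least 2-fold lower on control array 3 (STC2) and 1 higher (ATF3).

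Around cystine and glutathione, where SLC7A11 works, 4 of 25 probe sets of 12 genes were called higher and 0 lower, where 0.898% of all probe sets were called higher and 0.978% lower. The 4 belong to only 2 genes, and 3 of them to NQO1. At an unadjusted p under 0.05 by limma, 9 of the 25 were higher and 0 lower (background 8.49% and 8.05%). Probe sets of 1 gene share their transcript, so these counts are not of independent genes. The list was also chosen with earlier results of these data known, so the counts are a description and no test of the list. NQO1, a quinone reductase and target of the antioxidant factor NFE2L2, rose in all 3 of its probe sets. Its brightest (201468_s_at) gave 13.70, 13.76 and 13.59 on MBD2 arrays 1 to 3, against 12.22, 11.80 and 11.81 on control arrays 1 to 3, a difference of 1.74 (adjusted p = 0.0129). The fourth was 1 of 3 probe sets of malic enzyme ME1 (204058_at, 0.94, adjusted p = 0.0179), whose brightest had 0.08. NFE2L2 itself had a difference of -0.40 (adjusted p = 0.350).

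Of the enzymes that handle glutamine and glutamate, 5 genes were measured by 9 probe sets and 0 were called in either direction (background 0.978% lower and 0.898% higher), with 1 lower and 0 higher at an unadjusted p under 0.05 (background 8.05% and 8.49%). Glutamine synthetase (GLUL), which makes the substrate of SLC1A5 and SLC38A1, gave 10.33, 10.49 and 10.43 on MBD2 arrays 1 to 3, against 10.88, 11.14 and 13.21 on control arrays 1 to 3. It was 4.60-fold higher on control array 3 than on the other controls, the array on which SLC7A5, SLC7A11 and SLC3A2 were low. The genes by which mTORC1 senses amino acids, 18 genes on 46 probe sets, also had 0 calls in either direction, with 3 lower and 2 higher at an unadjusted p under 0.05, below the same background shares.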

How the data were processed

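The authors deposited log2 values, 1 for each probe set on each array, after RMA (background correction, quantile normalization and summary of probes). RMA and affy are the tools in the submitters' processing notes, with no versions. The deposited values ran from 2.57 to 14.74, with a median of 5.24 on every array. Quantile normalization hides a change shared by all genes, and values near background understate differences.

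Symbols came from the platform annotation: 41091 probe sets had 1 symbol, and 1801 with several, 11721 with none and 62 array controls were not tested. The RefSeq table held 19735 of 19777 Entrez identifiers. Groups were compared with limma 3.58.1 in R 4.3.3 (lmFit and eBayes, group as the only term), with Benjamini-Hochberg adjustment over the 41091 probe sets, and called at an adjusted p under 0.05 and at least 1.5-fold. Background was the highest array control without a target on each array, and values up to 0.5 above it counted as within 0.5 of background. No test for the arrays is named in the methods. An exact permutation test of 3 arrays against 3 cannot go below 0.1, so none was used.

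The members and lists were chosen with earlier results of these data known. Named were all member probe sets, MBD2, up to 4 called genes of each list with the largest change in their brightest probe set, ATF4, NFE2L2 and ASNS, and the 5 profiles nearest to SLC6A14. A gene's single value is its brightest probe set by the mean of 6 arrays. SLC7A8, SLC7A1, SLC6A6, ATF3, STC2, GLUL, DCN, CD14 and PTPRC were named after their values were seen. The fit was tested on simulated data with 6 independent arrays. Those data lack the near-alike arrays seen here, so that test cannot vouch for the calls on these arrays. Alternatives covered probe set choice, filters, centring, the variance model, arrays left out, a replicate block and thresholds.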

Additional observations from a re-analysis of the deposited data

How the results depend on the processing

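The calls depended on single arrays, and control arrays 1 and 2 and MBD2 arrays 2 and 3 were nearly alike, so the number of independent samples is unknown and the array number limits the precision. Over all probe sets limma called 402 lower and 369 higher. These were 253 and 196 with the mean of a gene's probe sets. They were 246 and 245 when probe sets whose names end in s_at, x_at or a_at were dropped. Without both control array 3 and MBD2 array 1 they were 4094 and 6380. With 1 array left out they were 18 to 1924 and 2 to 3616 (most without MBD2 array 1, fewest without control array 2). With the near-identical arrays averaged 0 and 0 were called, where 2747 passed an unadjusted p under 0.05. The methods' rule (every MBD2 array over 1.5 or under 0.5 times the control mean, no test) took 1230 as higher. With the replicate number as a block, 23 were called lower and 1 higher, and 0 member probe sets. The deviations of same-numbered arrays from their group means had correlations of 0.17, -0.27 and 0.21. With 1 array apart in each group, these mostly reflect which array that was. They cannot tell whether the numbers pair the samples.

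Of the 25 member probe sets other than SLC6A14, 0 were called lower. The count was 1, SLC1A3, with the brightest probe set of each gene, the mean of a gene's probe sets, a mean of at least 5, centring on the housekeeping genes, a trended and robust variance, and the methods' rule. It was 15 without both arrays, and 0 to 3 with 1 array left out. Called higher were 0, and 1 by the methods' rule. For the other amino acid carriers the 1 lower call became 0 with the brightest probe set, the gene mean, no shared endings, the trended and robust variance, the replicate block, averaged arrays, a 2-fold threshold and the methods' rule, 24 without both arrays, and 0 to 4 with 1 array left out. The 0 higher calls became 4 without both arrays, 1 by the methods' rule, and 0 to 1 with 1 array left out.

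The sign turned in 11 fits of single genes. SLC6A15 had -0.0169 with housekeeping centring and -1.69 without both arrays, and ran from -1.14 (without control array 3) to 0.72 with 1 array left out, with -0.47 without MBD2 array 1. SLC7A5 had -0.42 without both arrays and ran from -0.34 (without control array 3) to 0.37 with 1 array left out. SLC3A2 had 0.10 with averaged arrays and ran from -0.94 (without control array 3) to 0.0657 (without control array 1). SLC1A4 had 0.00938 without shared endings, which leaves its dim probe set. SLC1A5 ran from -0.27 (without control array 3) to 0.0887 (without control array 1), with 0.05 without MBD2 array 1. All of these genes were short of the threshold with all arrays. Housekeeping centring moved the median of all probe sets to -0.10. Except where the arrays left out are the cause by construction, the cause was not tested.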
